A study of Mus musculus with 38 samples.

Results

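Genes of programmed cell death were followed in the spleen of DBA/2 mice after the alkylating drug cyclophosphamide. The group consists of the probes assigned to 1 gene whose symbol starts with Bcl2, Casp, Birc, Traf, Pdcd or Map3k, or is 1 of a short list of single names such as Bak1, Bid, Apaf1, Diablo, Fas and Cflar, with the further condition that no group had fewer than 3 mice with a value. By name, 62 probes of 61 genes were found among 13443 probes on the array, and 35 probes of 34 genes passed the requirement on values. These 35 are the members tested, set against 8319 probes tested in all. Bax and Fadd were not analysed here.

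The samples are splenocytes of DBA/2 mice in 4 groups: 5 untreated mice, 4 mice taken 1 day, 5 mice taken 2 days and 5 mice taken 5 days after cyclophosphamide at 83 mg/kg. The design text speaks of 5 mice in each condition, and 4 were analysed here on day 1. Each of the 19 mice has 2 technical arrays, 38 in all, which were averaged. Every array compares spleen RNA, labelled with Cy5, with RNA of 1 pool of DBA/2 bone marrow cells, labelled with Cy3. The pool is described as untreated, while a treatment field of the same channel names cyclophosphamide. The pool is shared by all arrays and cancels between the groups. All values are log2 ratios of spleen over this pool, and a difference of 1 is a 2-fold change. The base of the logarithm is not stated and was taken as 2.

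Cells die by apoptosis along a pair of routes. In the mitochondrial route, BCL2 family proteins decide whether the outer mitochondrial membrane is opened, after which cytochrome c and Apaf1 activate caspase 9. In the death receptor route, receptors of the TNF family recruit adaptors, caspase 8, TRAF proteins and inhibitor of apoptosis proteins, and the same complexes can instead switch on NF-kappaB and, through MAP3 kinases, the JNK and p38 kinases. Lymphocytes and dividing blood precursors are known for their sensitivity to DNA damage, which acts largely through p53 and BH3-only proteins.

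A value was missing where the submitters gave none, and this limits what can be said of the group. Of the 62 probes, 35 (56.5%) passed, against 61.9% of all probes. The 27 others include 6 with no value in any mouse, namely Bcl2a1c, Birc5, Casp8, Pdcd5, Traf1 and Traf6. A further 9 had a value in 1 to 4 mice, among them Fas, the death receptor best known for killing lymphocytes, which had a value in 1 mouse. Another 7 had values in 5 to 9 mice, among them Cflar, the inhibitor of caspase 8, with a value in 8. The last 5 had values in 10 or more mice but in only 2 untreated mice, namely Bcl2, Mcl1, Bcl2l12, Cycs and Traf5. Bcl2, the founding survival protein of its family, had a value in 2 of 5 untreated mice, 3 of 4 on day 1, 4 of 5 on day 2 and 5 of 5 on day 5. Its 14 values lay between -0.26 and 0.34. Mcl1, a short-lived survival protein, had values in 2, 3, 4 and 4 mice of the same groups, between -0.28 and 0.72. None of these 27 was tested, and a missing value was not read as a low level.

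**Figure D1:**
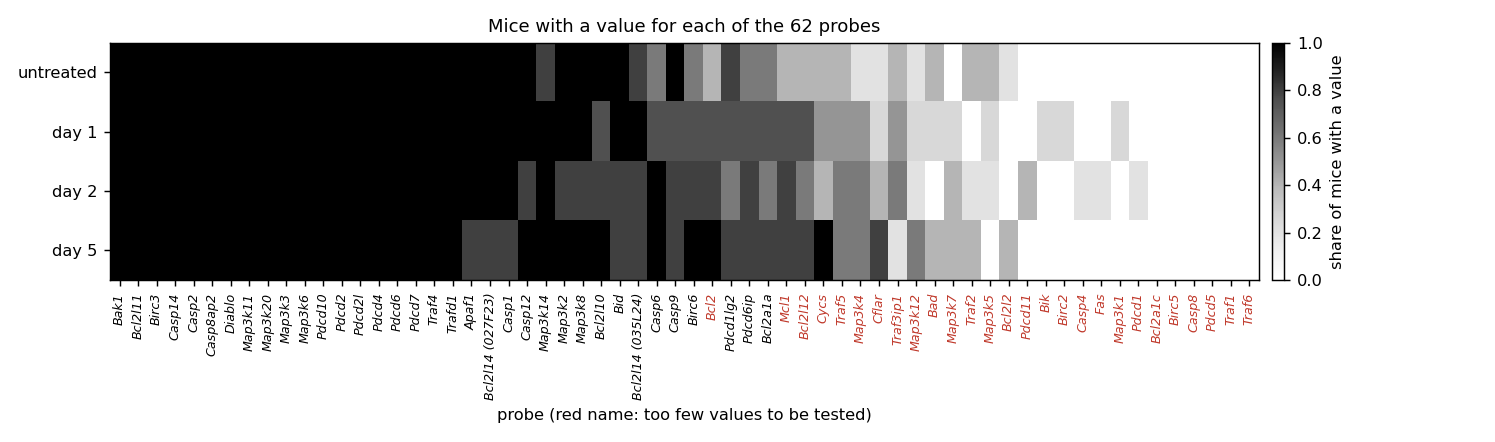
Share of mice with a value (grey scale, from 0 in white to 1 in black) for each of the 62 probes (columns) in the 4 groups (rows). The 35 probes tested have black names and the 27 others have red names; Bcl2 darkens from 2 of 5 untreated mice to 5 of 5 mice on day 5, and 6 probes are white throughout.

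Before the results, the quality of the arrays bears on what follows. The technical arrays of 3 mice correlated below 0.7, with 0.581 in untreated mouse 4, 0.651 in untreated mouse 2 and 0.673 in day 5 mouse 5, and results are also given without these mice. No slide or scan date is given, so no such batch could be tested. Over all probes the log2 ratios were spread more widely on day 2 (SD 0.51 to 0.70 per mouse) than in untreated mice (0.41 to 0.53). Markers were read against the label: neutrophil genes lay far below the pool in untreated mice (medians of 5 probes per mouse between -2.67 and -1.67) and T cell genes above it (medians of 6 probes between 0.04 and 0.57), while 7 B cell probes lay near it (-0.22 to 0.07). Of 9 probes of dividing cells, 5 fell on each of days 1 and 2. The medians of the 9 per mouse lay between -2.03 and -1.53 on day 1 and between -2.61 and -1.52 on day 2, against -0.74 to -0.30 in untreated mice. In these bulk samples, fewer cells of a type and less RNA per cell cannot be told apart.

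Few members changed. Probes are called changed at an adjusted p below 0.05 (limma, 2-sided, Benjamini-Hochberg over 8319 probes). On day 1 against untreated mice 1 of 35 members rose and 0 fell, while 0.938% of all probes rose and 1.39% fell. On day 2 against untreated mice 2 rose and 1 fell, against backgrounds of 3.31% and 5.00%. On day 5 against untreated mice 0 of 35 were called by limma, with a background of 0.0721% in either direction. An unadjusted limma p below 0.05 was reached there by 2 of 35 members and by 434 of all 8319 probes. Between day 2 and day 1 again 0 were called by limma, with a background of 0.0601%. In that comparison 1 of 35 members and 501 of all 8319 probes had an unadjusted limma p below 0.05. Between day 5 and day 2, 1 member rose and 1 fell, with backgrounds of 3.80% and 1.50%. With 35 members, 1 call more or less decides on which side of the background each share falls. The members called were Pdcd4, Birc3 and Map3k6.

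Pdcd4, which encodes an inhibitor of the translation helicase eIF4A, rose on days 1 and 2. On day 1 its log2 ratios were 0.96, 0.67, 0.88 and 1.00, against -0.02, -0.10, 0.13, -0.12 and 0.14 in untreated mice. They were 0.40, 0.55, 0.77, 0.34 and 0.98 on day 2, and 0.28, 0.66, 0.62, 0.49 and 0.76 on day 5. Every one of the 14 treated mice lay above every untreated mouse. The log2 difference from untreated mice was 0.87 ± 0.14 (SE, 1.83-fold, n = 4 against 5, limma adjusted p = 0.00167) on day 1. It was 0.60 ± 0.13 on day 2 (1.52-fold, n = 5 each, limma adjusted p = 0.00674). On day 5 it was 0.56 ± 0.13 (1.47-fold, n = 5 each), which was not called (limma adjusted p = 0.348, unadjusted p = 0.000496 in limma), although it ranked 11 of 8319 probes by p in that comparison. Day 2 and day 1 differed by -0.27 ± 0.14 (limma adjusted p = 0.85), and day 5 and day 2 by -0.05 ± 0.13 (limma adjusted p = 0.906). The day 1 call held in all 32 alternatives. The day 2 call was lost without the 3 mice of low technical correlation (0.52, limma adjusted p = 0.0508) and with quantile normalization (0.45, limma adjusted p = 0.0653).

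Birc3, which encodes a ubiquitin ligase of the inhibitor of apoptosis family that acts at TNF receptor complexes and is itself a textbook NF-kappaB target, rose on day 2 and was lower again on day 5. On day 2 its log2 ratios were 0.78, 0.69, 0.98, 0.90 and 0.81, against 0.02, -0.53, -0.24, 0.05 and 0.58 in untreated mice. On day 1 they were 0.47, 0.74, 0.76 and -0.01, and on day 5 they were 0.26, 0.37, 0.15, 0.00 and -0.14. With technical arrays averaged, the 5 day 2 mice lay above all untreated and all day 5 mice. Day 1 overlapped both untreated mice and day 2. The technical arrays of day 2 mouse 5 gave 1.28 and 0.35, the second below untreated mouse 5 (0.58). The day 2 difference from untreated mice was 0.85 ± 0.18 (SE, 1.81-fold, n = 5 each, limma adjusted p = 0.00429). On day 1 it was 0.51 ± 0.19 (limma adjusted p = 0.194) and on day 5 it was 0.15 ± 0.18 (limma adjusted p = 0.974). Day 5 was below day 2 by a log2 difference of -0.71 ± 0.18 (limma adjusted p = 0.0239). The spread in untreated mice was wide partly through mouse 2, whose technical arrays gave 0.36 and -1.42. Without the 3 mice of low technical correlation, of which it is one, the day 2 difference was 0.71 (limma adjusted p = 0.0328). The day 2 call held in all 32 alternatives. The fall between day 2 and day 5 held in 26 of 32. It was lost with quantile normalization, with equal median absolute deviation and with technical array 2 alone. It was also lost without day 2 mouse 3 (limma adjusted p = 0.0567), day 5 mouse 4 (0.0524) or day 5 mouse 5 (0.0655).

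Map3k6, which encodes ASK2, a stress-activated kinase above JNK and p38 that works together with ASK1, fell on day 2 and was higher again on day 5. On day 2 its log2 ratios were -0.40, -0.42, -0.89, -1.31 and -0.98, against 0.02, 0.08, 0.05, 0.17 and -0.24 in untreated mice. On day 1 they were -0.60, -0.76, -0.25 and -0.52, and on day 5 they were -0.03, -0.25, -0.14, -0.32 and -0.17. All mice of days 1 and 2 lay below all untreated mice, on day 1 by a narrow margin (-0.25 against -0.24), and all day 5 mice lay above all day 2 mice. The day 2 difference from untreated mice was -0.81 ± 0.16 (SE, 1.76-fold lower, n = 5 each, limma adjusted p = 0.00195). On day 1 it was -0.55 ± 0.17 (limma adjusted p = 0.091) and on day 5 it was -0.20 ± 0.16 (limma adjusted p = 0.932). Day 5 was above day 2 by 0.62 ± 0.16 (limma adjusted p = 0.0234). The day 2 call held in all 32 alternatives, with a difference of -0.74 and a limma adjusted p of 0.0248 without the 3 mice of low technical correlation. The day 1 difference passed with array weights (-0.50, limma adjusted p = 0.0365) and without day 2 mouse 4 (-0.55, limma adjusted p = 0.0483). The rise between day 2 and day 5 held in 25 of 32. It was lost with quantile normalization, with equal median absolute deviation and with only the groups compared. It was also lost without day 2 mouse 3 (limma adjusted p = 0.0527), mouse 4 (0.0535) or mouse 5 (0.0643), or day 5 mouse 1 (0.0612).

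**Figure D2:**
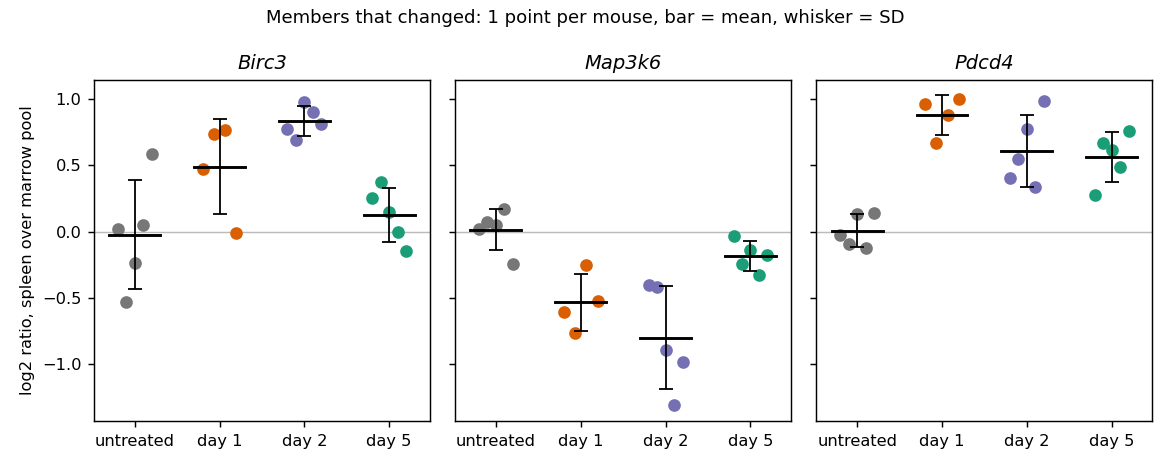
Log2 ratio of spleen over the marrow pool (y axis) for Birc3, Map3k6 and Pdcd4 in untreated mice and 1, 2 and 5 days after cyclophosphamide (x axis), with 1 point per mouse, a bar at the mean and a whisker of 1 SD. Birc3 and Map3k6 move furthest from untreated mice on day 2 and are closer to them on day 5, whereas Pdcd4 lies above all untreated mice on each day.

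The start regions of these genes are shown because they are the members that changed. They run from 250 bases before to 50 bases after the annotated start (RefSeq, GRCm38.p6, 5' to 3' on the gene's strand). Capitals mark the letters CCAAT and GGGCGG, searched on both strands, which 37.4% and 35.7% of 32851 such windows hold. TATAAA (13.6% of windows), the NF-kappaB motif (8.46%) and the p53 half-site (8.36%) were searched in the same way. The Birc3 window (chr9:7873121-7873420, minus strand) and the Map3k6 window (chr4:133240568-133240867, plus strand) held none of the 5 motifs. Pdcd4 has 2 annotated starts. The window printed (chr19:53903101-53903400, plus strand) held CCAAT in 2 places and GGGCGG in 3, and the window at chr19:53891981-53892280 held none. A match or its lack describes these letters and nothing else.
Birc3: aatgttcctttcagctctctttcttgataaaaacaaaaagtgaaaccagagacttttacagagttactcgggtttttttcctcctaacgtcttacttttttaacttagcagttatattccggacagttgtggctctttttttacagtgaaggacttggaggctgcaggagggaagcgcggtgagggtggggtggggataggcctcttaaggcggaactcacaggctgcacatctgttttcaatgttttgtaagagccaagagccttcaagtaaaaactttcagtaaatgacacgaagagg
Map3k6: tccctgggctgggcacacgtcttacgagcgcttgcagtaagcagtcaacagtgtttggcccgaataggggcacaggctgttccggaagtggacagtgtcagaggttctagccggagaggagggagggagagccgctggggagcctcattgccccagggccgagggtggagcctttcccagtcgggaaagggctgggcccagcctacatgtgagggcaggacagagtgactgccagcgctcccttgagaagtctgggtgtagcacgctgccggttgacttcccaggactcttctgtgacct
Pdcd4: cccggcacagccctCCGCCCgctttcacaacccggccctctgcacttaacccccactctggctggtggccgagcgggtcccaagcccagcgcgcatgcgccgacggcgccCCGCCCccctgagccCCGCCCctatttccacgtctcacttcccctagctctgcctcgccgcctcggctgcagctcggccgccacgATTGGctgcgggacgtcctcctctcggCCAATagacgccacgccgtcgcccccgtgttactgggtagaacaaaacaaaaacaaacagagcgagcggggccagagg

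Over all 35 members, the called ones included, the shares of narrow intervals were near those of the array. The 95% interval of the difference from untreated mice lay within a 2-fold change in either direction for 33 of 35 members on day 1 (89.4% of all probes), for 31 on day 2 (87.0%) and for 33 on day 5 (94.5%). The median log2 difference of the members was 0.07 on day 1, 0.08 on day 2 and -0.03 on day 5, beside 0.02, 0.01 and 0.01 over all probes. Treated and untreated mice did not overlap for 2 members on day 1 (Pdcd4 and Map3k6, with 8.32% of all probes), for 3 on day 2 (Pdcd4, Birc3 and Map3k6, with 8.84%) and for 1 on day 5 (Pdcd4, with 1.59%). The spread between mice of a group was like that of the array, with a median SD of 0.262 for the members and 0.266 for all probes. The steadiest member was Diablo (SD 0.136) and the most variable was Bcl2a1a (1.12).

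**Figure D3:**
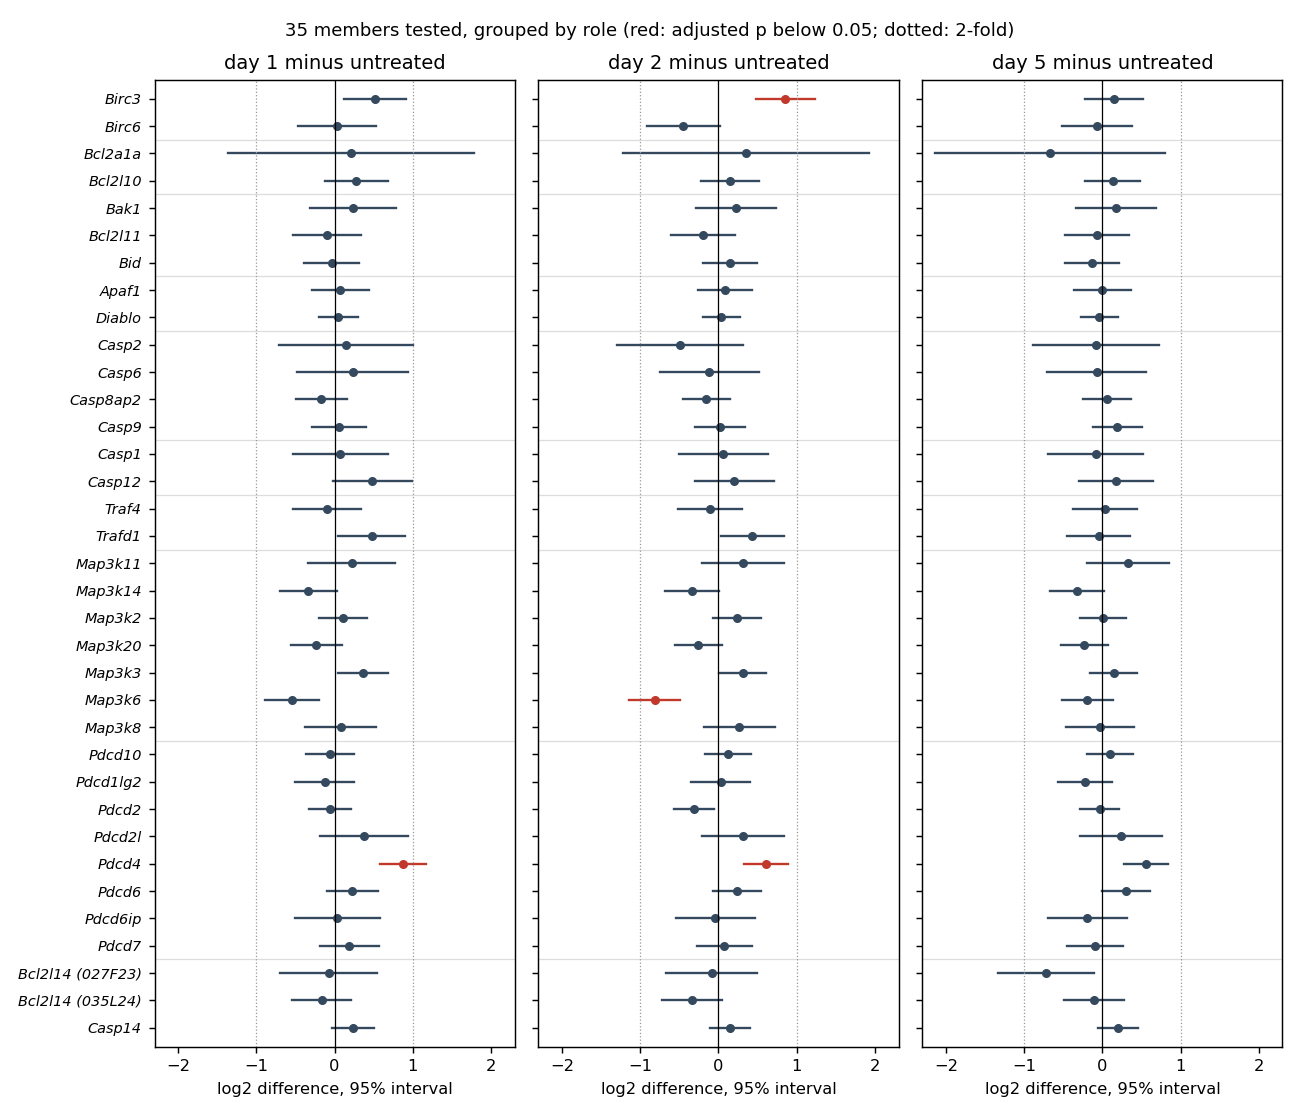
Log2 difference from untreated mice with its 95% interval (x axis) for the 35 members, grouped by role (rows), on days 1, 2 and 5. Red marks an adjusted p below 0.05 and dotted lines mark a 2-fold change; Pdcd4 is red on days 1 and 2, Birc3 and Map3k6 are red on day 2, and no member is red on day 5.

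Apart from Bcl2l14, given further on, 5 members of the BCL2 family were tested, and none was called in any comparison, the smallest unadjusted limma p in a comparison with untreated mice being 0.161. Bak1, which forms pores in the mitochondrial membrane, differed from untreated mice by 0.24 ± 0.26 on day 1, 0.22 ± 0.25 on day 2 and 0.17 ± 0.25 on day 5. Its untreated mouse 3 lay at -1.45 against -0.24 or more in the other untreated mice, and without that mouse the day 2 difference was -0.04. Bcl2l11 (Bim), a BH3-only protein needed for the death of lymphocytes, differed by -0.10 ± 0.21, -0.20 ± 0.20 and -0.07 ± 0.20 on days 1, 2 and 5. Bid, which links caspase 8 to the mitochondria, differed by -0.04 ± 0.17, 0.15 ± 0.17 and -0.13 ± 0.17 on the same days. These 3 death-promoting genes had intervals within 2-fold on each day. Of the survival proteins, Bcl2l10 differed by 0.28 ± 0.19 on day 1 and by less on days 2 and 5 (0.15 and 0.13). Bcl2a1a, of a set of near-identical mouse copies that 1 probe may not separate, gave values in 13 mice, from -0.27 to 2.88, and its day 2 interval of -1.22 to 1.92 was the widest of the members.

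Downstream of mitochondria, Apaf1, the scaffold of the apoptosome, differed from untreated mice by 0.07 ± 0.18 on day 1, 0.08 ± 0.17 on day 2 and 0.00 ± 0.18 on day 5. Diablo, which blocks inhibitor of apoptosis proteins once released, was above the marrow pool in all 19 mice (0.08 to 0.66) and differed from untreated mice by 0.05 ± 0.12, 0.04 ± 0.11 and -0.04 ± 0.11 on the 3 days. Its level relative to marrow includes any dye effect, since no dyes were swapped. Cycs, cytochrome c itself, had a value in 2 mice of each group before day 5 and was not tested.

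Among the apoptotic caspases, with Casp8ap2 counted beside them, 4 probes were tested and none was called. Casp9, the caspase of the apoptosome, differed from untreated mice by 0.06 ± 0.16 on day 1, 0.02 ± 0.15 on day 2 and 0.19 ± 0.15 on day 5. Casp6, an executioner that cuts lamins, differed by 0.23 ± 0.34, -0.12 ± 0.30 and -0.08 ± 0.30 on the same days. Casp2, linked to DNA damage and to the PIDDosome, had log2 ratios of -2.93, 0.35, -0.37, 0.16 and -0.21 on day 2, against -0.16, -0.10, -0.03, -0.22 and -0.03 in untreated mice. Only day 2 mouse 1 stood apart, on both technical arrays (-3.18 and -2.68). The day 2 difference of Casp2 was -0.49 ± 0.39 with this mouse and 0.09 without it. Casp8ap2 (FLASH), a binding partner of caspase 8 that also takes part in histone RNA processing, differed by -0.17 ± 0.16, -0.15 ± 0.15 and 0.06 ± 0.15.

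The inflammatory caspases were likewise not called. Casp1, which matures interleukin 1 beta, differed from untreated mice by 0.07 ± 0.29 on day 1 and 0.06 ± 0.27 on day 2. Casp12, tied to endoplasmic reticulum stress in mice, differed by 0.48 ± 0.24 on day 1 (limma adjusted p = 0.412) and 0.20 ± 0.24 on day 2. Casp14, the caspase of skin differentiation, lay below the pool in 17 of 19 mice and differed by 0.24 ± 0.13 on day 1 and 0.15 ± 0.12 on day 2. Birc6, a very large ubiquitin ligase of the inhibitor of apoptosis family, differed by 0.03 ± 0.24 on day 1 and by -0.45 ± 0.22 on day 2 (limma adjusted p = 0.263). Its 4 day 2 values were -0.47, 0.02, 0.02 and 0.09, so that mouse 1 stood apart. Its 3 untreated values were 0.08, 0.15 and 0.86, the last from 1 technical array of untreated mouse 4.

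Of the TRAF-named and MAP3 kinase probes 9 were tested, and Map3k6 was the one called. Trafd1, a feedback regulator of innate immune signalling, differed from untreated mice by 0.47 ± 0.20 on day 1 (limma adjusted p = 0.295), by 0.43 ± 0.19 on day 2 (limma adjusted p = 0.195) and by -0.05 ± 0.19 on day 5, or 0.16 without day 5 mouse 3. Traf4 differed by -0.10 ± 0.21, -0.11 ± 0.20 and 0.03 ± 0.20. Map3k3, a kinase of the NF-kappaB and MAP kinase routes, differed by 0.37 ± 0.15 on day 1 (limma adjusted p = 0.27) and 0.31 ± 0.14 on day 2 (limma adjusted p = 0.217). The day 2 difference passed with technical array 2 alone (0.43, limma adjusted p = 0.0486) and with array weights (0.48, limma adjusted p = 0.021). Map3k14 (NIK), the kinase of the alternative NF-kappaB route, differed by -0.34 ± 0.17, -0.34 ± 0.17 and -0.33 ± 0.17 on days 1, 2 and 5 and was not called. Map3k20 (ZAK), a sensor of ribosome stress, differed by -0.23 ± 0.15, -0.26 ± 0.15 and -0.23 ± 0.15. Map3k2, Map3k8 and Map3k11 differed by -0.03 to 0.33 over the 3 days and were not called either. The upper end was Map3k11 on day 5. Its untreated mouse 3 lay at -1.74, against -0.32 to 0.31 in the other untreated mice. The other 5 MAP3 kinase probes, Map3k5 (ASK1) among them, were not tested.

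Of the genes named after programmed cell death 8 were tested, and Pdcd4 was the member called. Several of them have other main roles, such as Pdcd1lg2 (PD-L2), a ligand of the PD-1 receptor, and Pdcd10, a signalling scaffold of blood vessels. Pdcd2, a chaperone of a ribosomal protein, differed from untreated mice by -0.06 ± 0.13 on day 1 and -0.31 ± 0.12 on day 2 (limma adjusted p = 0.125). Pdcd6 (ALG-2), a calcium-binding adaptor, differed by 0.22 ± 0.16, 0.24 ± 0.15 and 0.30 ± 0.15 on days 1, 2 and 5. For Pdcd6, untreated mouse 2 lay at -0.38, against 0.17 to 0.40 in the other untreated mice. The technical arrays of that mouse gave -1.20 and 0.44. Pdcd2l differed by 0.38 ± 0.27, 0.31 ± 0.25 and 0.24 ± 0.25. Pdcd10, Pdcd1lg2, Pdcd6ip and Pdcd7 differed by -0.22 to 0.19 over the 3 days. Bcl2l14 has a pair of probes, neither of which was called. On day 5 the probe 027F23 differed from untreated mice by -0.72 ± 0.30 (limma adjusted p = 0.923) and the probe 035L24 by -0.11 ± 0.18, and the difference between the probes was not tested.

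**Figure D4:**
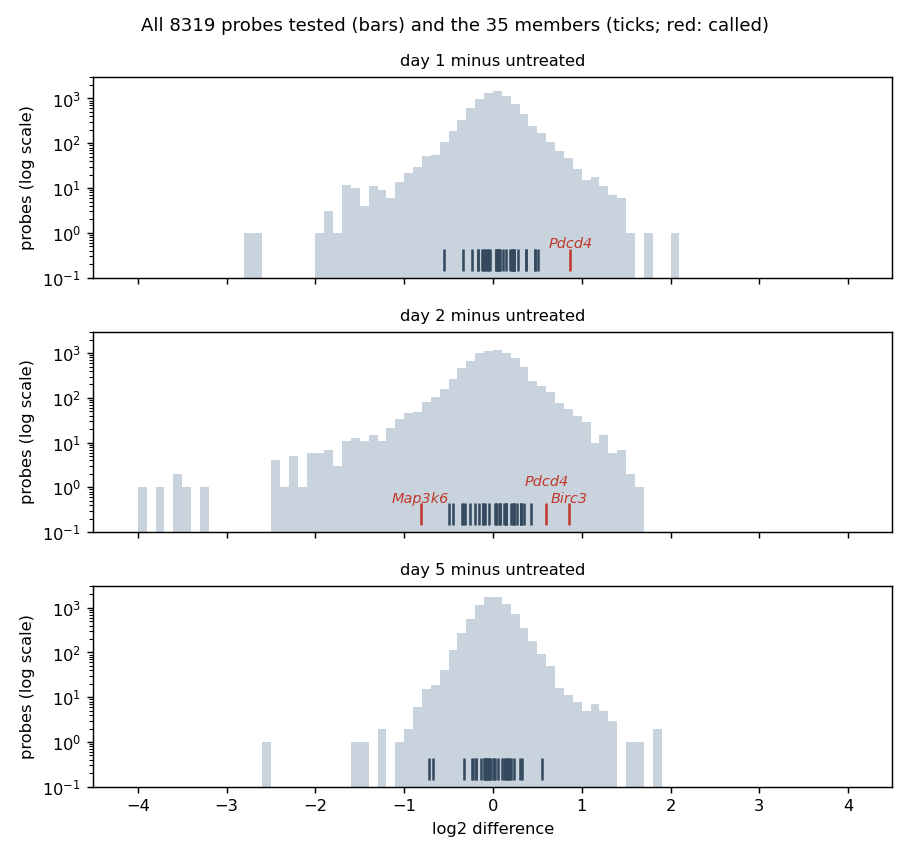
Number of the 8319 probes tested in bins of log2 difference from untreated mice (bars, log scale) on days 1, 2 and 5, with the 35 members as ticks and the called ones in red. On day 2 the members reach from Map3k6 at -0.81 to Birc3 at 0.85, in the tails of the distribution, while all probes reach from -3.94 to 1.61.

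Other genes of these routes, from lists outside the member names, were counted in the same way. A list of TNF family receptors, ligands and adaptors had 8 genes tested, Tnfrsf9 and Tnfrsf13b among them, so it was wider than death receptors. Of these 8, 0 were called on day 1 and 1 had an unadjusted limma p below 0.05. On day 2 Tnfrsf10b, the mouse TRAIL receptor, was the one called, lower by a log2 difference of -0.86 ± 0.17 (limma adjusted p = 0.00308), and it was higher on day 5 than on day 2 by 0.70 ± 0.17 (limma adjusted p = 0.0205). Its day 2 call held in all 32 alternatives and the later one in 26. Of 9 genes of p53 and its targets, 2 rose on day 1, 3 on day 2 and 0 on day 5. At an unadjusted limma p below 0.05 there were 5, 4 and 5 of the 9 on these days. Over all 8319 probes there were 1099, 1739 and 434. The day 5 differences of the 9 ran from -0.38 (Trp53inp1) to 0.55 (Aen), and 0 fell by the adjusted p. Cdkn1a, the p21 inhibitor of the cell cycle, rose by 1.11 ± 0.24 on day 1 (limma adjusted p = 0.0159) and 0.80 ± 0.23 on day 2 (limma adjusted p = 0.0336). Polk, a DNA polymerase that bypasses lesions, rose by 0.73 ± 0.15 and 0.50 ± 0.14 on the same days, and Zmat3 by 0.62 ± 0.17 on day 2. Of 32 alternatives, Cdkn1a passed in 28 on day 1 and in 21 on day 2, Polk in 31 and 19, and Zmat3 in 23. On day 1 the Cdkn1a call was lost without day 1 mouse 2 or mouse 4, among others, and the Polk call without day 1 mouse 4.

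Of 11 mitochondrial and execution genes 1 rose and 1 fell on each of days 1 and 2. Hspa1a, a heat shock chaperone, rose by 1.27 ± 0.31 on day 1 and 1.01 ± 0.29 on day 2 (limma adjusted p = 0.0325 and 0.0377), passing in 22 and 20 of 32 alternatives. Lmnb1, a nuclear lamina protein cut by caspases, fell by 0.81 ± 0.18 and 1.11 ± 0.17 on those days on the log2 scale and rose between day 2 and day 5 by 1.39 ± 0.17 (limma adjusted p = 2.83e-05). The Lmnb1 call passed in 26 of 32 alternatives on day 1 and in all 32 for day 2 and for the later rise. Of 11 NF-kappaB genes, Nfkbia, the inhibitor that NF-kappaB itself induces, rose by 0.82 ± 0.20 on day 1 (limma adjusted p = 0.0269) and 0.70 ± 0.18 on day 2 (limma adjusted p = 0.0207), and Tnip1 fell between day 2 and day 5 (-0.83 ± 0.23, limma adjusted p = 0.0446). Nfkbia passed in 26 of 32 alternatives on day 1 and 28 on day 2, and Tnip1 in 13 of the 24 in which it was tested. Of 7 probes for kinases below the MAP3 kinases, limma called 0 on any day, with 1 at an unadjusted p below 0.05 on day 1 and 0 on days 2 and 5.

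Birc5 (survivin), an inhibitor of apoptosis protein that works in chromosome segregation, had no value in any mouse, and its level is not known. Genes that act with it in cell division were counted, which does not stand in for Birc5 itself. Of 4 tested, 2 fell on day 1, 3 fell on day 2 and 2 rose between day 2 and day 5. The shares over all probes were 1.39%, 5.00% and 3.80%. Cdca8, a subunit of the same complex, fell by 1.57 ± 0.28 on day 1 and 1.87 ± 0.26 on day 2 on the log2 scale (limma adjusted p = 0.0033 and 7.54e-05). Sgo1, a protector of sister chromatids, fell by 1.82 ± 0.23 and 2.07 ± 0.22 (limma adjusted p = 8.38e-05 and 2.38e-06). Incenp, another subunit, fell by 0.90 ± 0.27 on day 2 (limma adjusted p = 0.0447), a call that held in 10 of 32 alternatives. Bub1, a mitotic checkpoint kinase, differed by -0.35 ± 0.26 and -0.49 ± 0.26 and was not called. Of 9 probes of dividing cells 5 fell on each of days 1 and 2 and 5 rose between day 2 and day 5.

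The marker genes of other cells moved beside the called members as follows, and their part in the results was not tested. Of 11 red cell precursor probes 4 fell on day 1 and 7 on day 2, and 6 rose between day 2 and day 5. Their medians per mouse lay between -1.60 and -0.50 on day 2, against -0.20 to 0.01 in untreated mice. Of 6 macrophage probes 1 rose on day 1 (Siglec1, 0.77 ± 0.16) and 2 on day 2 (Siglec1, 1.24 ± 0.16, and Mrc1, 1.08 ± 0.31), with medians per mouse of 0.51 to 1.93 on day 2, against 0.18 to 0.86 in untreated mice. Limma called 0 of 7 B cell, 6 T cell, 8 natural killer cell, 4 plasma cell, 5 neutrophil and 2 dendritic cell probes on days 1 and 2. At an unadjusted p below 0.05 on day 2 these were 1, 1, 1, 2, 1 and 0 probes of the same lists. The interval on day 2 lay within a 2-fold change for 7, 5, 8, 3, 0 and 2 probes of these lists. The neutrophil median difference was -0.77 on day 1 and -0.50 on day 2 (median SE 0.53 and 0.50). On each day 4 neutrophil probes were lower and 1 was higher. Of the plasma cell probes 3 were lower on day 2, down to -0.85 (Mzb1), and 1 was higher. For neutrophil and plasma cell genes, the lack of calls does not show that they were unchanged. Between day 2 and day 5, 2 of 7 B cell probes fell (Cd22, -0.96 ± 0.16, and Ms4a1, -0.66 ± 0.18) and 5 were not called. In the same comparison Siglec1 (-0.99 ± 0.16) fell and C1qa (1.76 ± 0.44) rose among 6 macrophage probes. Ltf rose among 5 neutrophil probes (1.48 ± 0.42). Of 4 platelet and megakaryocyte probes Itga2b rose on day 2 (0.85 ± 0.21) and day 5 (1.11 ± 0.20, limma adjusted p = 0.0396). The day 5 call was lost with equal median absolute deviation, with technical array 2 alone and with mouse number in the fit, among others. In those fits 0 probes of the array were called on day 5 against untreated mice. Of 9 stromal and endothelial probes Col14a1 rose on days 1 and 2 (1.46 ± 0.30 and 1.49 ± 0.28) and fell between day 2 and day 5 (-1.08 ± 0.28).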

How the data were processed

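The authors deposited log2 ratios of spleen over a marrow pool, per the labels (Cy5 sample, Cy3 pool, amplified RNA); not given in the sources used here are the log base, background correction, software and normalization. Values are bounded at a size of 6, which no member reached, and array medians lie between -0.0212 and 0.0132. The number of mice is among the limits on precision.

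Of the probes, 10032 carry 1 gene, and symbols of 10028 were updated through RefSeq gene identifiers. Technical arrays were averaged. Probes for which every group had 3 or more mice with values entered lmFit and eBayes of limma (version 3.58.1, R 4.3.3). The fit had 4 group means over all 19 mice. The method was first run on simulated data with planted changes of 2-fold or more, and smaller changes were not simulated. Figures used matplotlib 3.10.9. Text names every called member, up to 4 members of each role by smallest p, and called genes of other lists (182 of 209 symbols on the array). Members and lists were chosen with earlier results of these data known. Alternatives changed scaling, arrays, filter, variance model, samples and threshold. Mice of one number did not deviate together (27 pairs, mean correlation -0.00472, range -0.249 to 0.326), so numbers were not taken as pairs.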

Additional observations from a re-analysis of the deposited data

Results flagged for a closer look

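Day 5 and day 2 differed in a test of the difference itself for Birc3 (-0.7056 on the log2 scale) and Map3k6 (0.6174), both called by limma. Among 127 groups of values of the members, 12 held a mouse far from the others of its group, and the nominal chance rate is about 1 in 20. The members share mice and arrays, so these groups are not independent, and an excess over that rate was not tested. The mice far from the others were, among untreated mice, mouse 4 for Apaf1 (-0.8373) and Casp12 (-0.7293) and mouse 3 for Bak1 (-1.4497). On day 1 they were mouse 2 for Apaf1 (0.2113) and mouse 4 for Casp2 (-0.1914) and Pdcd2l (0.5346). On day 2 they were mouse 1 for Casp2 (-2.9306) and Birc6 (-0.4659) and mouse 4 for Map3k14 (-0.5385). On day 5 they were mouse 3 for Bcl2l11 (0.6518) and Trafd1 (-0.8254) and mouse 5 for Bcl2l14, probe 035L24 (-0.2546). Untreated mouse 4 and day 5 mouse 5 are among the 3 with technical arrays correlating below 0.7.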

How the results depend on the processing

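The counts of called members were 1 (day 1 against untreated mice), 3 (day 2 against untreated mice), 0 (day 5 against untreated mice), 0 (day 2 against day 1) and 2 (day 5 against day 2). No value of a member called in limma changed sign under any alternative. The day 1 count was 2 with array weights, where 403 of all probes were called against 194 in the main fit. It was 1 to 2 when each mouse was left out in turn. The day 2 count was 2 with quantile normalization and without the 3 mice of low technical correlation. With technical array 2 alone and with array weights it was 4. Over all probes, 691 were called on day 2, against 338 with quantile normalization and 353 with equal median absolute deviation. The count between day 5 and day 2 was 0 with quantile normalization, with equal median absolute deviation and at an adjusted p below 0.01, and 1 with technical array 2 alone and with only the groups compared. It ranged from 0 to 2 when each mouse was left out in turn, with 0 without day 2 mouse 3. Over all probes, 441 were called in this comparison in the main fit. There were 83 with quantile normalization, 144 with equal median absolute deviation and 192 at an adjusted p below 0.01. With the replicate block (mouse number in the fit) the counts were 1, 3, 0, 0 and 2 in the same order, and no call of a member changed. The cause of these shifts was not tested. Missing values kept 27 of 62 probes out of the tests.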
